A study of Mus musculus and Acomys cahirinus with 25 samples.

Results

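Sox2, Sox11, Sox18, Foxd1, Alx4, Corin, Crabp1, Prdm1, Rspo3 and Trps1 are genes by which the dermal condensate and the dermal papilla, the mesenchymal part of a hair follicle, are commonly recognised. They were taken by symbol, 10 of the 24500 gene rows counted in each of 25 RNA-seq libraries, and all 10 were found. The study asked how new hair follicles form in large skin wounds, a process called wound-induced hair neogenesis (WIHN). Laboratory mice (wounded at 4 weeks of age with a 1 × 1 cm full thickness wound) were sampled at post-wounding day (PWD) 14. C57BL/6J was the paper's primary laboratory mouse. African spiny mice (Acomys cahirinus, wounded at 8 weeks with a 1.5 × 1.5 cm wound) were sampled at PWD0, 14, 21 and 28.

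Of the 9 laboratory mouse dermis libraries, 5 came from the wound center of wild type (WT) mice, 2 from the margin of such wounds and 2 from the center of K14-Cre-Twist1 wounds. K14-Cre-Twist1 mice carry loxP-flanked Twist1 and Cre under the keratin 14 promoter, which is active in keratinocytes, so that Twist1 is deleted in the epidermis and not in the dermis that was sequenced. The paper names the parent lines of this cross but not its strain background. Their WT controls were Twist1 +/+ mice, and the labels do not say whether these carried Cre. The paper does not say whether all WT center libraries came from the same stock. The center was a punch biopsy and the rest of the wound was the margin, with the layers parted by hand. The 4 laboratory mouse epidermis libraries were 2 of WT center and 2 of WT margin. The spiny mouse libraries came from whole wounds, or from unwounded skin at PWD0, parted after trypsin: dermis had 2 libraries for PWD0, 1 for PWD14, 2 for PWD21 and 1 for PWD28, and epidermis had 1, 2, 2 and 1. The paper calls its laboratory mouse RNA-seq replicates biologically independent experiments and its RNA-seq replicates in general independent, while the labels tie no library to an animal. The p-values measure the spread between these libraries.

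All values are CPM, the reads of a gene scaled to a common total of reads on all gene rows. Reads on genes ran from 19413261 to 86532134 in laboratory mouse libraries and from 5669760 to 34751956 in spiny mouse libraries. A floor of 3 counts was taken as the least amount that can be detected, which came to between 0.0347 and 0.155 CPM and between 0.0863 and 0.529 CPM, respectively, and covers counting error only. Spiny mouse reads were aligned to the laboratory mouse genome, so levels were not compared between the species. In bulk tissue, fewer cells of a type and less RNA per cell cannot be told apart.

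The dermis libraries were checked against cell type markers. The summed level of 12 dermal fibroblast markers lay between 68968 and 163083 CPM in the 15 dermis libraries and between 238 and 5854 CPM in the 10 epidermis libraries. The summed level of 12 keratinocyte markers was 13.1 to 622 CPM in WT center dermis, and 2337 and 4776 CPM in WT margin dermis. In K14-Cre-Twist1 center dermis it was 1028 CPM in replicate 1 and 36557 CPM in replicate 2, so replicate 2 stood apart. The 11 hair follicle epithelium markers found summed to at most 9.49 CPM in any laboratory mouse center dermis library, WT or K14-Cre-Twist1, against 807 and 829.4 CPM in the margin dermis. In spiny mouse dermis the follicle markers ranged from 157 CPM at PWD14 to 32808 CPM at PWD28, and the keratinocyte markers were highest at PWD0, with 11206 and 7534 CPM. Dermal Twist1 was 43.97 and 73.4 CPM in the K14-Cre-Twist1 libraries and 36.3 to 159 CPM in WT center, a value that does not check a deletion made in keratinocytes.

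**Figure D1:**
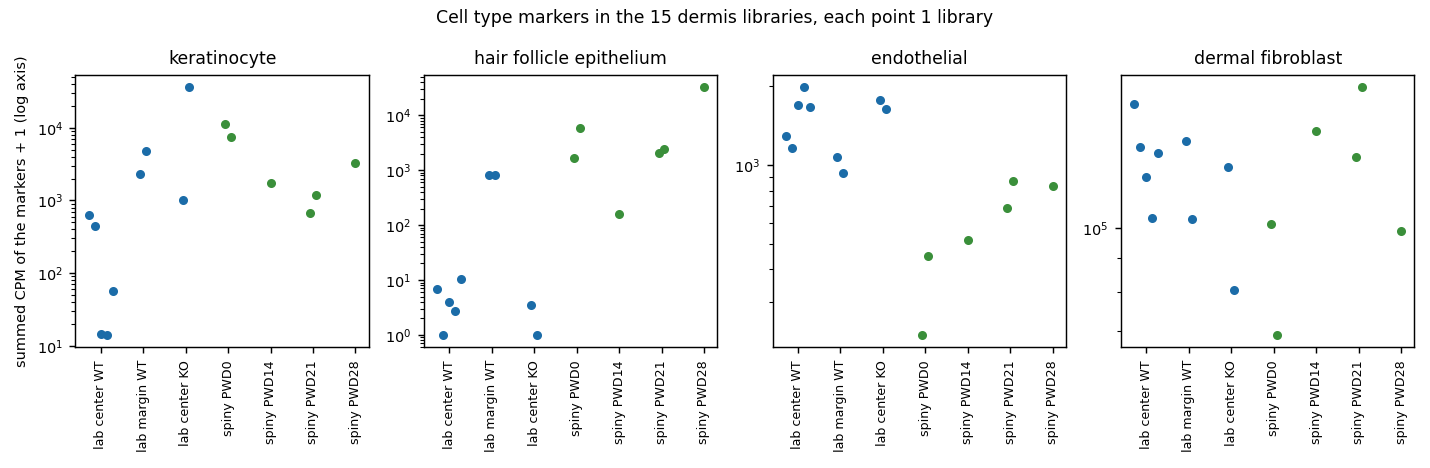
Summed CPM of cell type markers (plus 1, log axis) in each of the 15 dermis libraries, one point a library, with laboratory mouse in blue and spiny mouse in green. Keratinocyte markers reach 36557 CPM in replicate 2 of K14-Cre-Twist1 center, and hair follicle epithelium markers separate laboratory mouse margin (807 and 829.4 CPM) from center (at most 9.49 CPM).

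A dermal condensate is a cluster of specialised fibroblasts that forms under an epidermal placode, exchanges Wnt, Fgf, Shh and Bmp signals with it, and later becomes the papilla at the base of the follicle. Sox2, Sox18, Foxd1, Alx4, Prdm1 and Trps1 encode transcription factors reported in condensates, papillae or their progenitor fibroblasts, and Sox11 encodes a factor of embryonic mesenchyme. Corin is a membrane serine protease of the papilla, Crabp1 binds retinoic acid in the cytoplasm, and Rspo3 is a secreted protein that strengthens Wnt signals through Lgr receptors. Most are not restricted to these cells: Sox18 is also expressed in endothelium, Sox2 in Merkel cells, and Prdm1 in differentiating keratinocytes and sebaceous cells.

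The sequences just upstream of the annotated starts of Foxd1, Corin and Sox11 are shown because Foxd1 and Corin had reads in laboratory mouse margin dermis and none in WT center dermis, and because Sox11 had the largest fitted change of the 10 genes between days in spiny mouse dermis. They are the 120 bases before the RefSeq start on GRCm38.p6, 5′ to 3′ on the gene's strand, for Foxd1 at chr13:98354125-98354244 (plus strand), for Corin at chr5:72504541-72504660 (minus strand) and for Sox11 at chr12:27342719-27342838 (minus strand). Capitals mark E-boxes (CANNTG, the same on both strands), the letters that bHLH factors such as Twist1 bind.
Foxd1: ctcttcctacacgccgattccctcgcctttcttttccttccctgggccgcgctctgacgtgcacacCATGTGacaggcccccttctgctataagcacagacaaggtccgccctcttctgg
Corin: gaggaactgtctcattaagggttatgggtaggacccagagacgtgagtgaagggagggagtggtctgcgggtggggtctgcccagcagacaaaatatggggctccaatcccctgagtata
Sox11: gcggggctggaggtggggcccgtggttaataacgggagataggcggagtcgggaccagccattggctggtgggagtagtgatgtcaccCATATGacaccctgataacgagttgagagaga
The Foxd1 stretch held 1 E-box, starting 54 bases before the start, and the Sox11 stretch held 1, starting 32 bases before it. The Corin stretch held none. Of all 32851 promoters in the RefSeq table, 40.2% held an E-box in the same 120 bases. TATAA, searched on both strands, was found in the Foxd1 stretch and in 11.8% of all promoters, and was not found in the other two stretches. A match is a string of letters only. RefSeq promoters were matched for 6 of the 10 genes, which leaves Sox18, Alx4, Rspo3 and Trps1 without one.

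In WT center dermis of the laboratory mouse the 10 genes spanned a wide range of levels. Per kilobase of exon, Crabp1 had the highest mean level, 572 CPM per kb (262 to 1046, n = 5), followed by Sox18 at 29.6 CPM per kb (15.5 to 54.4), and their ranges did not overlap each other or those of the other genes. Prdm1 at 4.43, Trps1 at 3.36, Rspo3 at 2.57 and Sox11 at 2.32 CPM per kb came next, with overlapping ranges. Sox2 at 0.713 and Alx4 at 0.206 CPM per kb were lower still, each with at least 1 library at 0, and Foxd1 and Corin had no read in any of the 5 libraries. In spiny mouse dermis at PWD21 Crabp1 (426 CPM per kb) and Sox18 (43.3) led. Rspo3 (14.7), Sox11 (12.4), Trps1 (10.6) and Prdm1 (7.4) followed, and Corin (0.586) and Foxd1 (0.321) were lowest. These spiny mouse values rest on alignment to the laboratory mouse genome and on its exon lengths. The part of alignment in this order was not tested.

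The first comparison asked which of these genes differed between the center, where new follicles form, and the margin of the WT wound at PWD14. Foxd1 was detected only in the margin dermis, at 2.07 and 0.946 CPM (48 and 21 reads), and had no read in the 5 WT and 2 K14-Cre-Twist1 center libraries. Corin followed the same split, with 0.947 and 0.406 CPM (22 and 9 reads) in the margin, no read in the 5 WT center libraries, and 2 reads in all in the K14-Cre-Twist1 libraries. Against the floor of 3 counts in the shallower of center replicates 1 and 2, Foxd1 was at least 9.75-fold lower and Corin at least 4.38-fold lower in the center. With all 5 WT center libraries set against the 2 margin libraries, the levels of Foxd1 and Corin did not overlap between the groups. The share of all genes without overlap between these libraries was not counted, so this says nothing particular of the 2 genes.

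The same margin libraries carried the hair follicle epithelium markers, at 807 and 829.4 CPM, and more keratinocyte marker reads than any WT center library. Sebaceous gland markers summed to 190.5 and 236 CPM in the margin and to 91.0 to 140 CPM in WT center. Schwann cell and melanocyte markers summed to 625.4 and 528 CPM in the margin and to 59.1 to 209 CPM in WT center. The part of these cells in the Foxd1 and Corin reads was not tested.

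The remaining genes overlapped between center and margin. Sox2 varied widely within the center, with 0.589, 4.02, 2.38, 0.353 and 0 CPM in replicates 1 to 5, against 2.67 and 1.98 CPM in the margin. Krt20 and the other Merkel cell markers, with Atoh1 at 0 in every laboratory mouse dermis library, summed to at most 5.24 CPM. Sox11 was at 14.7, 10.2, 41.6, 17.6 and 12.4 CPM in the center and 17.7 and 13.7 CPM in the margin. The 41.6 CPM of replicate 3 lay above all other laboratory mouse dermis libraries. Sox18 ran from 25.1 to 88.1 CPM in the center and was 33.0 and 25.6 CPM in the margin.

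Alx4, a homeodomain factor of limb and skin mesenchyme, was at 0, 0.0515, 0.664, 0.907 and 5.66 CPM in the center and 0.56 and 0.0451 CPM in the margin, so the highest library lay far above the rest. The repressors Prdm1 (19.0 to 32.0 CPM in the center, 24.6 and 39.4 CPM in the margin) and Trps1 (34.9 to 55.1 CPM in the center, 45.1 and 66.2 CPM in the margin) overlapped as well. Rspo3 was at 10.8, 5.61, 4.3, 12.9 and 6.15 CPM in the center and 9 and 12 CPM in the margin. Crabp1 was at 412, 320, 513, 210 and 839 CPM in the center and at 269 CPM in both margin libraries, so that 1 of 5 center libraries lay below the margin.

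**Figure D2:**
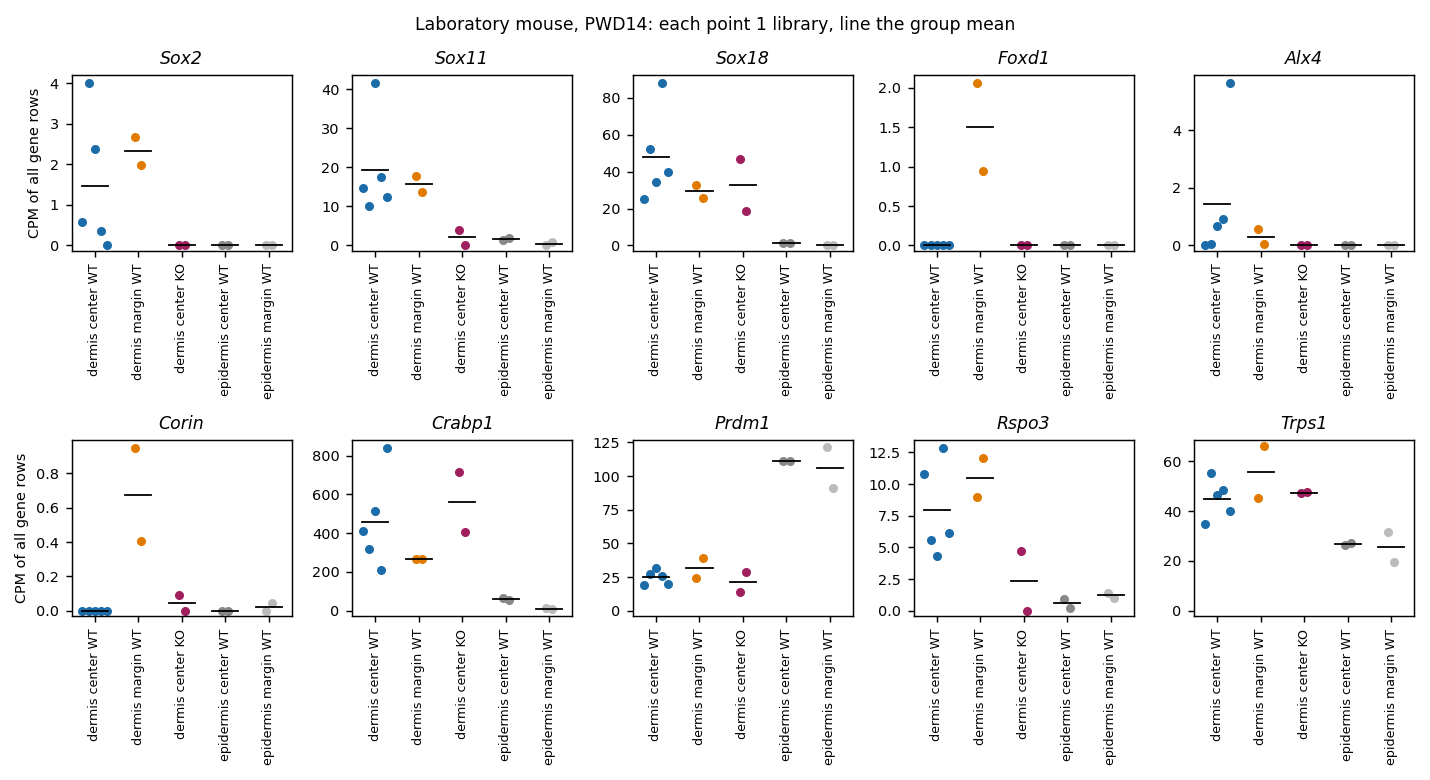
CPM of each gene in the 13 laboratory mouse libraries at PWD14, one point a library and a line at the group mean, each panel on its own axis from 0. Foxd1 and Corin have reads in both margin dermis libraries and none in the 5 WT center libraries, and Sox11 is lowest among dermis libraries in the 2 K14-Cre-Twist1 libraries (4.05 and 0.0461 CPM).

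The test used center replicates 1 and 2 against the 2 margin libraries, as the study did. At a false discovery rate (FDR) under 0.05 with the edgeR quasi-likelihood test, 0.85% of 14698 genes tested passed, and 0 of the 8 of these genes that could be tested did. Unadjusted p-values under 0.05 were found for 2 of the 8, Foxd1 (FDR = 0.246) and Crabp1, whose log2 fold change was 0.54 ± 0.20 (SE; FDR = 0.242). Over all genes tested, 2329 of 14698 had an unadjusted p that low. DESeq2, with 5.02% of all genes called, called 0 of the 8, and the likelihood ratio test of edgeR, with 6.03%, called 1, Foxd1, with FDR = 0.0353. Alx4 and Corin had too few reads to be tested. The median log2 fold change of the 8 was -0.23, beside -0.03 over all genes. The levels of 3 of the 10 genes (Foxd1, Corin and Crabp1) did not overlap between these 4 libraries, as was the case for 45.3% of all genes tested.

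The fitted log2 fold changes of the other tested genes were 0.00 ± 1.04 for Sox2, -0.23 ± 0.51 for Sox11, 0.46 ± 0.38 for Sox18, -0.38 ± 0.38 for Prdm1, -0.24 ± 0.62 for Rspo3 and -0.22 ± 0.30 for Trps1. Within 2 SE the values of Sox2, Sox11 and Rspo3 leave room for changes of more than 1.5-fold in either direction. Those of Sox18, Prdm1 and Trps1 leave such room in a single direction. Changes of that size in those directions are not excluded by these libraries.

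Of the wider set of 21 condensate and papilla genes, such as Alpl, Vcan, Lef1 and Tbx18, 0 of 21 tested passed between center and margin (4 at an unadjusted p under 0.05), with a median log2 fold change of 0.05. Of the 6 R-spondin receptors and targets, 5 were tested and 1 passed: Lgr5, a receptor that binds R-spondins, was at 50.5 ± 22.9 CPM in the center and 160 ± 10.8 CPM in the margin (SD, n = 2 each), a log2 fold change of -1.55 ± 0.30 with FDR = 0.0427. Lgr5 also marks hair follicle stem cells. Among relatives of the 10 genes (0 of 9 tested, 1 unadjusted) and retinoic acid genes (0 of 10 tested, 4 unadjusted) none passed. Beside these unadjusted counts, 2329 of all 14698 genes tested had an unadjusted p under 0.05.

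The second comparison asked whether deleting Twist1 in keratinocytes changed these genes in the dermis beneath. K14-Cre-Twist1 center replicates 1 and 2 were compared with WT center replicates 3 to 5, the division the study used. Sox11 was at 4.05 and 0.0461 CPM (86 and 1 reads) in the K14-Cre-Twist1 libraries, below all 7 WT dermis libraries, of which the lowest was 10.2 CPM. Its log2 fold change was -3.57 ± 1.06 and its unadjusted p-value 0.00903, but FDR = 0.281 over the 14163 genes tested with edgeR. With the exception of a fit without K14-Cre-Twist1 replicate 1, no setting placed Sox11 under the threshold. That fit rested on the 1 read of replicate 2, and many more of all genes passed in it than with both K14-Cre-Twist1 libraries. Without replicate 2 the log2 fold change was -2.56. Replicate 2, which held 1 read of Sox11 and none of Rspo3, also had the fewest genes with a read of all 25 libraries, 12075. Its share of reads on genes was 57.7%, and 34.4% were set aside for low alignment quality, the lowest and the highest of the 13 laboratory mouse libraries, and the part of this in its values was not tested.

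Alx4 and Sox2 had no read in either K14-Cre-Twist1 library. Alx4 was at 0.664, 0.907 and 5.66 CPM in WT replicates 3 to 5, so K14-Cre-Twist1 was at least 17.1-fold lower than the WT mean, which rests largely on replicate 5. Outside this comparison, Alx4 was at 0 and 0.0515 CPM in WT center replicates 1 and 2 and 0.56 and 0.0451 CPM in the margin. WT wound dermis therefore also reached 0. For Sox2 the WT libraries held 2.38, 0.353 and 0 CPM, so the groups met at 0. Rspo3 was at 4.71 and 0 CPM in K14-Cre-Twist1 and 4.3, 12.9 and 6.15 CPM in WT, with a log2 fold change of -1.67 ± 1.20 (FDR = 0.573), or -0.61 without replicate 2 (FDR = 0.916).

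The other genes overlapped between the genotypes. Crabp1 was at 716 and 403 CPM in K14-Cre-Twist1 and 210 to 839 CPM in WT replicates 3 to 5, with a log2 fold change of 0.10 ± 0.53. Sox18 was at 46.7 and 18.5 CPM against 34.6 to 88.1 CPM, with -0.70 ± 0.54, and Prdm1 at 13.7 and 29.0 CPM against 19.6 to 32.0 CPM, with -0.28 ± 0.47. Trps1 was nearly level, at 47.2 and 47.6 CPM against 39.9 to 48.2 CPM, a log2 fold change of 0.08 ± 0.28. Foxd1 was at 0 in all of them.

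In this comparison 0.0565% of all genes passed with edgeR, and 0 of the 7 testable genes did (1 at an unadjusted p under 0.05, Sox11). Over all genes tested, 1631 of 14163 had an unadjusted p under 0.05. DESeq2, with 5.56% of all genes called, called 1, Alx4, with FDR = 0.028, and the likelihood ratio test, with 1.51%, called 0. Sox2, Foxd1 and Corin could not be tested. The median log2 fold change of the 7 was -0.70, beside -0.07 over all genes. The levels of 2 of the 10, Sox11 and Alx4, did not overlap, as for 29.4% of all genes tested. Of the other 21 condensate and papilla genes, 17 were tested, 0 passed and 2 had an unadjusted p under 0.05, with a median of -0.38. The keratinocyte marker sum of 36557 CPM in K14-Cre-Twist1 replicate 2 accompanied a fibroblast marker sum of 80616 CPM, the lowest of the 9 laboratory mouse dermis libraries, and the part of either in these values was not tested.

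**Figure D3:**
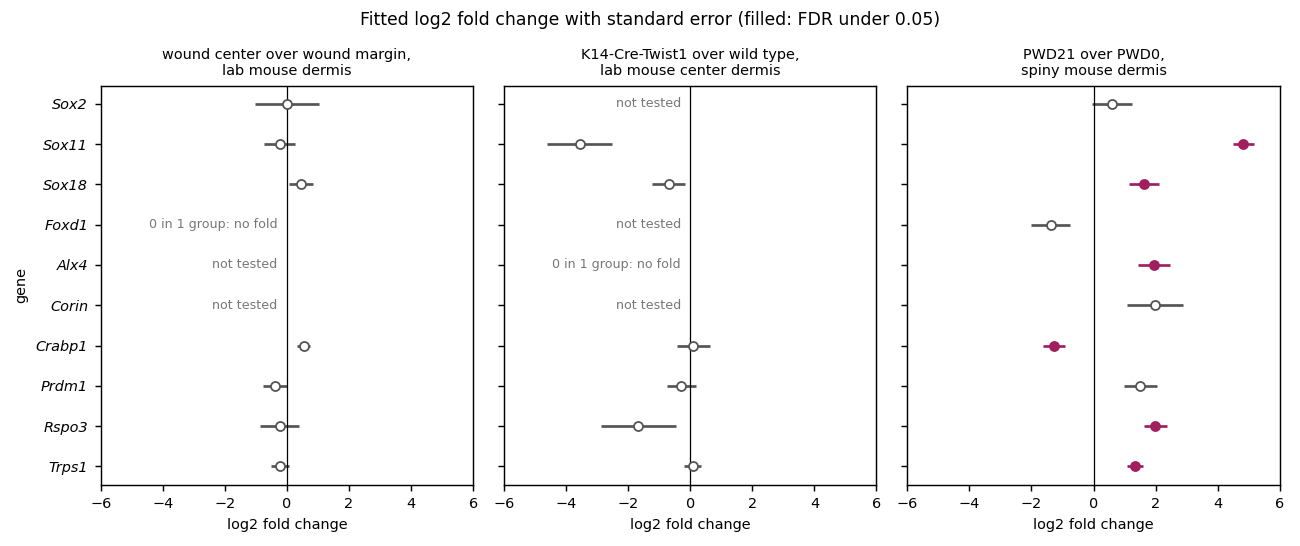
Fitted log2 fold change with standard error of each gene in the 3 dermis comparisons, filled where the FDR was under 0.05. No gene is filled in the laboratory mouse panels, and in spiny mouse dermis Sox11 has the largest change, 4.83, and Crabp1 is the one filled gene below 0.

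Spiny mouse dermis was followed from unwounded skin (PWD0) through PWD14, 21 and 28, with 1 library each at PWD14 and PWD28 and therefore no replicate check of those days. Sox11 was at 2.82 and 3.97 CPM in unwounded skin, 104 CPM by PWD14, 95.6 and 111 CPM by PWD21 and 43.9 CPM by PWD28. Every wound library was above both unwounded ones by more than 10-fold. Sox18 was at 9.35 and 34.5 CPM, then 44.7 CPM, then 62.5 and 77.8 CPM, and 154 CPM at PWD28, so its highest library was the latest. Sox2 stayed low, at 1.41 and 2.2 CPM, 0.706 CPM, 1.69 and 4.03 CPM, and 0.78 CPM. Its PWD0 and PWD21 libraries overlapped, and the single PWD14 and PWD28 libraries lay below them.

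Alx4 and Corin shared a late high point. Alx4 began at 2.29 and 1.47 CPM, was at 1.94 CPM on PWD14 and 8.76 and 6.91 CPM on PWD21, and reached 28.6 CPM on PWD28. Corin was at 0 and 1.47 CPM, 1.35 CPM, 3.28 and 3.05 CPM, and 20.8 CPM. The PWD28 library also held the highest hair follicle epithelium marker sum of the dermis libraries (32808 CPM), and the part of that in the levels of Alx4, Corin and Sox18 at PWD28 was not tested.

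Foxd1 and Crabp1 were highest in unwounded skin. Foxd1 was at 2.47 and 5.73 CPM at PWD0 and 0.765, 1, 2.24 and 1.07 CPM in the wound libraries from PWD14 to PWD28, all below both PWD0 libraries. Crabp1 was at 873 and 645 CPM in unwounded skin, 270 CPM on PWD14, 389 and 295 CPM on PWD21 and 544 CPM on PWD28, likewise lower in every wound library. Rspo3 and Trps1 peaked at PWD21: Rspo3 at 6.88 and 14.8 CPM, 20.7 CPM, 50.8 and 39.7 CPM, and 23.99 CPM, and Trps1 at 50.4 and 53.5 CPM, 31.4 CPM, 154 and 129 CPM, and 116 CPM. Prdm1 was at 5.29 and 23.1 CPM, 16.9 CPM, 36.2 and 46.4 CPM, and 55.6 CPM. By day means 2 genes were highest in unwounded skin, 1 on PWD14, 3 on PWD21 and 4 on PWD28, while 27.2%, 19.5%, 23.9% and 29.4% of all genes tested were highest on those days.

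**Figure D4:**
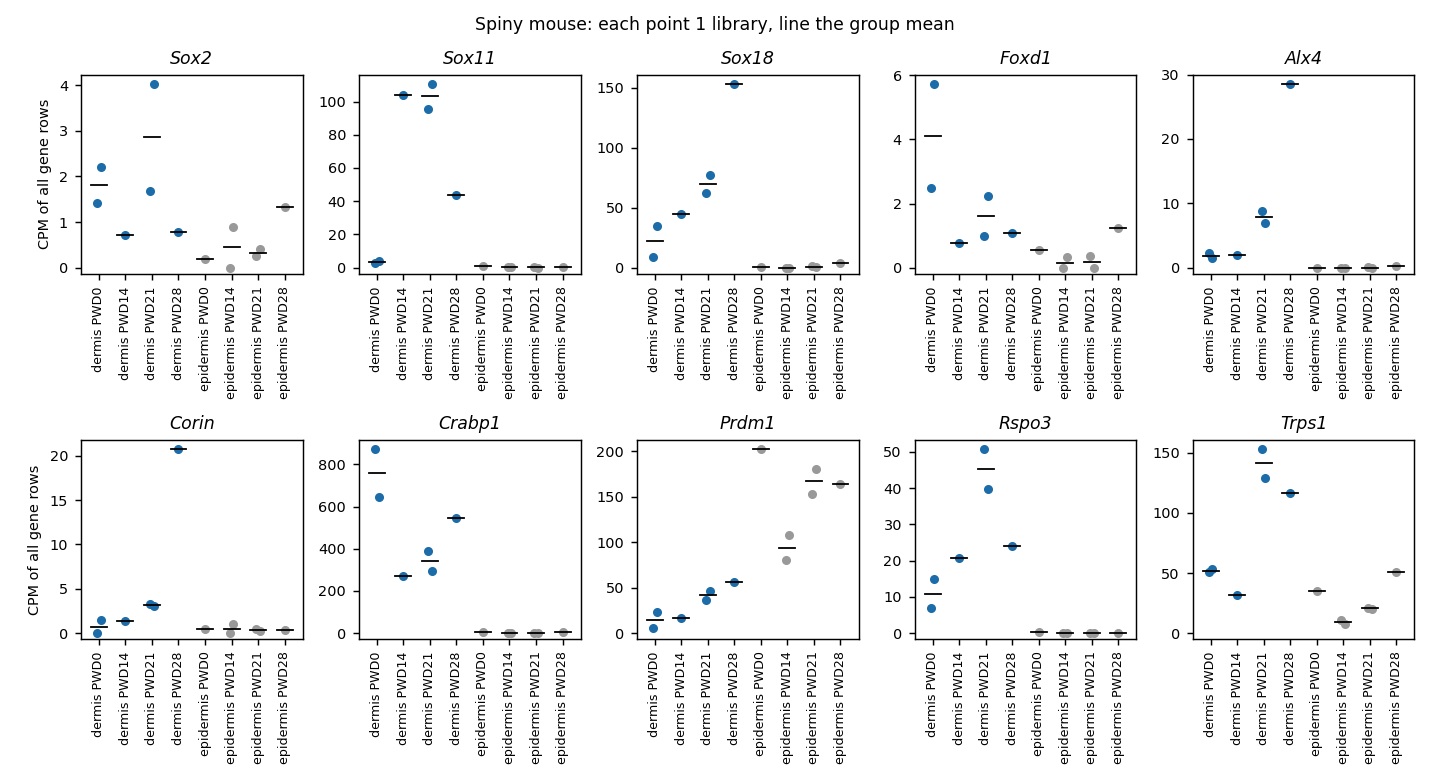
CPM of each gene in the 6 dermis (blue) and 6 epidermis (grey) libraries of the spiny mouse by post-wounding day, one point a library and a line at the group mean, each panel on its own axis. Sox11 is near 100 CPM at PWD14 and PWD21 and under 4 CPM at PWD0, and Alx4 and Corin are highest at PWD28 (28.6 and 20.8 CPM).

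Between PWD21 and PWD0, 6 of the 10 genes passed, 5 higher and 1 lower, where 26.2% of 14481 genes tested passed with edgeR (12% higher and 14.2% lower). Sox11 rose with a log2 fold change of 4.83 ± 0.33 (FDR = 0.000191). Rspo3 rose by 1.98 ± 0.37 (FDR = 0.00685), Trps1 by 1.33 ± 0.27 (FDR = 0.00937), Alx4 by 1.94 ± 0.51 (FDR = 0.0264) and Sox18 by 1.64 ± 0.48 (FDR = 0.0374), all on the log2 scale. Crabp1 fell by 1.29 ± 0.36 on the log2 scale (FDR = 0.0313). Prdm1 (1.51 ± 0.53, FDR = 0.0673), Corin (1.98 ± 0.90, FDR = 0.135), Foxd1 (-1.38 ± 0.63, FDR = 0.135) and Sox2 (0.58 ± 0.64, FDR = 0.53) did not pass. The median of the 10 was 1.57, beside 0.03 over all genes, and levels did not overlap for 9 of 10, all but Sox2, and for 67.7% of all genes tested.

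These calls lean on both PWD21 libraries. Leaving out either of them left 1 library on that day, and fewer of these genes and fewer of all genes passed. Without PWD0 replicate 1 the log2 fold change of Crabp1 was -0.88. Between PWD0 and PWD21 the keratinocyte marker sum went from 11206 and 7534 CPM to 677 and 1177 CPM, that of the fibroblast markers from 101214 and 68968 CPM to 127991 and 163083 CPM, and that of 12 endothelial markers from 224 and 448 CPM to 686 and 869 CPM. Lower at PWD21 were all 7 adipocyte markers, whose sum went from 1146 and 1117 CPM to 270 and 133 CPM, 6 of 7 sebaceous gland markers, from 925 and 1431 CPM to 168 and 249 CPM, and 8 of 11 skeletal muscle markers tested, from 259.8 and 544 CPM to 120.4 and 153 CPM. Of 3 Merkel cell markers tested 2 were lower. The part of these cells in the changes, that of the endothelium in Sox18 included, was not tested. Reads set aside for low alignment quality were 60.5% and 55.2% at PWD0 and 44.8% and 38.0% at PWD21. Reads on genes were 5669760 and 6804714 at PWD0 and 21927269 and 34751956 at PWD21. The part of alignment quality and depth in the changes was not tested either.

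Across the 4 days, 6 of the 10 genes passed a test for any difference, beside 24.7% of 15344 genes: Sox11 (FDR = 0.000411), Alx4 (0.00612), Trps1 (0.0118), Corin (0.0252), Rspo3 (0.0257) and Sox18 (0.0425). Crabp1 (0.0673), Prdm1 (0.1245), Foxd1 (0.152) and Sox2 (0.217) did not. PWD14 and PWD28 had 1 library each, so the spread in this test came from the PWD0 and PWD21 pairs. The single libraries were assumed to vary like those pairs. Corin, which did not pass between PWD21 and PWD0, was highest in the single PWD28 library. Fits that left out a PWD0 or PWD21 library rested on the spread of the other pair alone, so their calls are no check of this test.

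Other condensate and papilla genes also moved between PWD0 and PWD21. Of the 21, all were tested, and 10 were higher and 2 lower, with a median log2 fold change of 1.15. The largest changes were those of Tbx18, a T-box factor of the condensate (2.09 ± 1.21 CPM at PWD0 and 26.4 ± 1.91 CPM at PWD21, SD, n = 2 each, FDR = 0.00125), Ptch1, the Hedgehog receptor (6.42 ± 4.84 and 63.5 ± 19.2 CPM, FDR = 0.00302), Alpl, the alkaline phosphatase by which papillae are stained (5.57 ± 0.644 and 49.0 ± 12.6 CPM, FDR = 0.000793), and Inhba, an activin subunit (2.98 ± 2.22 and 23.96 ± 2.10 CPM, FDR = 0.00435). Across the 4 days 16 of the 21 passed.

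Among relatives of the 10 genes, 2 of 9 tested rose between PWD0 and PWD21, beside 12% of all genes tested. Sox12, of the same SoxC group as Sox11, went from 10.1 ± 3.01 to 106 ± 27.6 CPM (log2 fold change 3.31 ± 0.34, FDR = 0.000582). Rspo1, a secreted relative of Rspo3, went from 20.3 ± 1.47 to 89.0 ± 11.04 CPM (2.03 ± 0.29, FDR = 0.00213). Of the R-spondin receptors and targets 2 of 6 passed in opposite directions: Lgr5 rose by 1.96 ± 0.40 (FDR = 0.00996) and Lgr4 fell by 1.85 ± 0.31 (FDR = 0.0046) on the log2 scale. Of the retinoic acid genes 2 of 10 passed, Aldh1a3 (2.87 ± 0.42, FDR = 0.00252) and Aldh1a1 (1.30 ± 0.39, FDR = 0.0397), retinaldehyde dehydrogenases that make retinoic acid, both higher at PWD21, while Crabp1 was lower. With 26.2% of all genes tested passing in this comparison, the counts of these 3 lists lay near the background and say nothing particular of the lists.

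Epidermis served as the reference tissue. All laboratory mouse epidermis libraries were paired-end and all dermis libraries single-end, so tissue and read type cannot be told apart there. In the laboratory mouse, 60.5% of 14730 genes passed (30.6% higher and 29.8% lower in dermis) between the 4 WT dermis libraries of that comparison (center replicates 1 and 2 and both margins) and the 4 epidermis libraries. Of the 7 genes that could be tested 5 were higher in dermis and 1 lower. Sox2 had no read in epidermis and 2.31 ± 1.43 CPM in dermis (SD, n = 4), at least 27.2-fold higher (FDR = 0.00719). The log2 fold change was 5.48 ± 0.93 for Sox18 (FDR = 0.000723), 3.07 ± 0.60 for Sox11 (FDR = 0.00195), 2.81 ± 0.43 for Crabp1 (FDR = 0.000479) and 2.6 ± 0.53 for Rspo3 (FDR = 0.00249).

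Prdm1 went the other way, at 109 ± 12.8 CPM in epidermis and 27.6 ± 8.60 CPM in dermis, a log2 fold change of -2.83 ± 0.23 (FDR = 1.96e-05). Trps1 did not pass, with 0.10 ± 0.25 (FDR = 0.755), although its CPM was 50.3 ± 13.4 in dermis and 26.3 ± 5.02 in epidermis without overlap. That call depends on scaling: with library size only it passed (log2 fold change 0.93, FDR = 0.0104), where the median of all genes lay at 0.88 in place of 0.06 and 7202 genes were higher and 2280 lower in place of 4510 and 4395.

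In the spiny mouse 9 of the 10 genes passed between 6 dermis and 6 epidermis libraries, 8 higher in dermis and 1 lower, beside 54% of 15288 genes (28% higher and 26% lower). Rspo3 was at least 85.0-fold higher in dermis, with 26.2 ± 16.3 CPM there and at most 0.189 CPM in any epidermis library, and Alx4 at least 27.0-fold higher. The log2 fold change was 7.32 ± 0.29 for Crabp1 (FDR = 2.03e-08), 7.30 ± 1.09 for Sox11 (FDR = 0.000131), 6.14 ± 0.59 for Sox18 (FDR = 6.20e-06), 2.64 ± 0.81 for Corin (FDR = 0.0155), 2.05 ± 0.67 for Foxd1 (FDR = 0.0207) and 1.58 ± 0.29 for Trps1 (FDR = 0.000795). Prdm1 was again lower in dermis, by -2.63 ± 0.37 (FDR = 0.000127), with 80.5 to 203 CPM in epidermis and 5.29 to 55.6 CPM in dermis. Sox2 did not pass, with 1.71 ± 0.74 (FDR = 0.0709).

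Within laboratory mouse epidermis, 1.24% of 14165 genes passed between center and margin with edgeR and 0 of 6 testable genes did. An unadjusted p under 0.05 was found for 3328 of all 14165 genes and for 2 of the 6. DESeq2 (10.4% of all genes called) and the likelihood ratio test (10.8%) each called those 2, Crabp1 and Sox18. Crabp1 was at 64.3 and 54.8 CPM in center epidermis and 13.5 and 7.63 CPM in margin epidermis, a log2 fold change of 2.42 ± 0.36 (FDR = 0.0505). Sox18 was at 1.49 and 1.23 CPM in the center and had no read in the margin, at least 16.0-fold higher (FDR = 0.117). The dermal fibroblast markers moved with them, at 5854 and 4830 CPM in center and 2144 and 716 CPM in margin epidermis, as did the endothelial markers, at 45.0 and 33.3 CPM against 7.11 and 1.92 CPM, and their part in Crabp1 and Sox18 was not tested.

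The center-margin difference of Crabp1 differed between the tissues. It was 2.02 ± 0.43 lower in dermis than in epidermis on the log2 scale (interaction FDR = 0.0271 with edgeR), 1 of 9 genes tested to pass where 3.48% of 15531 genes did and the median over all genes was -0.31. The call was lost in 6 of 8 fits that left out a library (each of the 4 dermis libraries and each center epidermis library) and under RLE scaling (FDR = 0.0598), a minimum of 10 counts in every library (FDR = 0.0696) and the edgeR 3 estimate (FDR = 0.0626). Sox18 (FDR = 0.0731) and Sox11 (FDR = 0.406) did not pass. In the same interaction test the 12 dermal fibroblast markers had a median log2 value of -1.71, with 2 called. The 12 endothelial markers had a median of -3.87, with 6 called. A value like that of Crabp1 is therefore not particular to it, and the part of these cells in it was not tested.

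In spiny mouse epidermis at PWD14 against PWD21, 46.6% of 12889 genes passed, and of the 3 testable genes (Crabp1, Prdm1, Trps1) 0 passed. An unadjusted p under 0.05 was found for 6999 of all 12889 genes and for 1 of the 3. That was Trps1, at 11.2 and 7.91 CPM at PWD14 and 21.0 and 20.2 CPM at PWD21, with a log2 fold change of -0.57 ± 0.26 (FDR = 0.0897). With library size only, which moved the median of all genes from -0.04 to -0.59, 7058 of 12889 genes passed, 5721 of them lower at PWD14. Trps1 (FDR = 0.00366) and Prdm1 (FDR = 0.00396) were among the genes that passed.

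For 7 of the genes the mean dermal level reached 1 CPM in both species. The genes most like each of them were found by the lower of the Pearson r over the 9 laboratory mouse and over the 6 spiny mouse dermis libraries, on log2(TMM-scaled CPM + 1), among 12650 genes. For Sox11 these were Tead1, Amigo3 and Col11a1 (lower r of 0.949, 0.927 and 0.927), and for Rspo3 Fanca, Dmxl2 and Shcbp1 (0.948, 0.938 and 0.931). The best matches of the others were Atg9a for Sox18 (0.889), Rhoq for Sox2 (0.887), Kdm5b for Prdm1 (0.84), Epc2 for Trps1 (0.82) and B2m for Crabp1 (0.803). The points share depth and cell makeup within a library, and so many genes over so few libraries yield high values, so these are descriptions only.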

How the data were processed

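RNA-seq was read for 25 libraries. Per the file headers and labels, the authors deposited raw htseq-count counts per gene symbol, without normalization. They aligned reads to mm10 with STAR (2.4.1d in the submitters' processing notes, another version in the paper's methods) and counted with HTSeq 0.6.0 on RefSeq genes. The strand option is not given in the sources used here. Laboratory mouse libraries were strand-specific, paired-end for epidermis and single-end for dermis, and spiny mouse libraries were not strand-specific. Exons of Rspo3 (404 bases) and Corin (147 bases) overlap antisense genes in GENCODE annotation, whose reads cannot be told apart without strand. The 5 summary lines were left out. The paper's sample list gives other spiny mouse days than the labels, and labels were followed.

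Counts were tested here with edgeR 4.0.16 in R 4.3.3 (quasi-likelihood test, TMM, filterByExpr, prior count 0.125, Benjamini-Hochberg over all genes tested, FDR under 0.05). CPM divides by reads on all gene rows. Standard errors are the log2 fold change over the root of its F statistic. A fold against a group at or under 3 counts in every library is a lower bound, set against 3 counts in the library where they weigh most. The tests were checked on simulated counts. Alternatives were RLE, no TMM factor, no filter, at least 10 counts in every library, DESeq2 1.42.0, the likelihood ratio test, other sample sets, each library left out and, chosen after seeing the data, the edgeR 3 estimate. All 10 genes are named in each comparison, and of each other list at most 4 of those called with the largest change. WT center replicates were divided as library names in the study's clustering show. The genes and lists were chosen with earlier results of these data known. Pairs of replicates all differed by more than sampling noise. Figures used matplotlib 3.10.9.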

Additional observations from a re-analysis of the deposited data

Results flagged for a closer look

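Sox11 in WT center dermis was examined for a library far from the others, and replicate 3, at 41.6 CPM, lay apart from the other 4 libraries (10.2 to 17.6 CPM). Alx4 in the same group had 5.66 CPM in replicate 5, apart from the other 4 (0 to 0.907 CPM). These were 2 of 8 genes examined in this way, and how many chance would mark was not tested. Both libraries are among WT center replicates 3 to 5, which the study compared apart from the other center libraries. The center-margin log2 fold change of Crabp1 differed between dermis and epidermis by -2.02 in an interaction test (FDR = 0.0271). That call did not hold under every setting, as given above, and the dermal fibroblast markers had a median of -1.71 in the same test.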

How the results depend on the processing

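For single genes, the direction and side of the threshold were kept in 360 other settings and in 275 fits that left out a library. Among the other settings 3 calls were lost, 21 were gained and 7 values changed sign, and among the fits that left out a library these were 17, 12 and 15. In the counts of genes called out of the 10, center against margin dermis gave 1 by the likelihood ratio test in place of 0, and K14-Cre-Twist1 against WT gave 1 by DESeq2 and 0 to 1 when libraries were left out. Spiny mouse PWD21 against PWD0 gave 1 to 8 when libraries were left out in place of 6, and the test among days 2 to 8. Dermis against epidermis with at least 10 counts in every library gave 3 in the laboratory mouse and 3 in the spiny mouse, since fewer genes were tested. Center against margin epidermis gave 1 with library size only, 1 without a filter, 2 by DESeq2, 2 by the likelihood ratio test, 2 with 8 libraries in 1 fit and 0 to 4 with libraries left out. The interaction gave 0 with RLE, 0 with at least 10 counts, 2 by DESeq2, 2 by the likelihood ratio test and 0 to 1 with libraries left out. Spiny mouse epidermis gave 2 with library size only and 0 to 1 with libraries left out.

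Counts over all genes moved by more than 1.5 times. Center against margin dermis (125 genes called) gave 738 by DESeq2, 886 by the likelihood ratio test, 54 by the edgeR 3 estimate, 323 with 5 center libraries, 34 with 9 libraries in 1 fit and 19 to 241 with libraries left out. K14-Cre-Twist1 against WT (8) gave 787, 214, 2, 190 and 250 in the same order, 0 with at least 10 counts in every library and 1 to 3353 with libraries left out (3353 without K14-Cre-Twist1 replicate 1). Spiny mouse PWD21 against PWD0 (3792) gave 1311 to 5118 with libraries left out, and the test among days (3795) gave 6597 by the likelihood ratio test and 1602 to 7260. Spiny mouse dermis against epidermis (8255) gave 4800 with at least 10 counts. Center against margin epidermis (176) gave 1474 by DESeq2, 1533 by the likelihood ratio test, 0 by the edgeR 3 estimate, 966 with 8 libraries in 1 fit and 70 to 7405 with libraries left out. The interaction (540) gave 204 with at least 10 counts, 1108 by DESeq2, 1485 by the likelihood ratio test and 167 to 1343, and spiny mouse epidermis (6002) gave 3470 to 6635.

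Values that did not pass and changed sign in the center-margin dermis comparison were those of Sox2 (-0.0836 with library size only, -0.00197 with at least 10 counts, -0.53 with 5 center libraries and -0.53 with 9 libraries in 1 fit, and -1.85 to 0.83 with libraries left out), Sox11 (0.51 and 0.50 with 5 center and 9 libraries, -0.57 to 0.0294), Sox18 (-0.10 to 0.88), Rspo3 (-0.85 to 0.17) and Trps1 (-0.53 to 0.0470). The ranges over libraries left out were -0.43 to 0.64 for Crabp1 and -0.88 to 0.12 for Prdm1 in K14-Cre-Twist1 against WT, and -0.21 to 1.11 for Sox2 in spiny mouse PWD21 against PWD0. Trps1 in laboratory mouse dermis against epidermis was -0.0513 with wound center only and -0.0920 to 0.22 with libraries left out. The cause was not tested.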
